A study of Sus scrofa with 18 samples.

Results

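The family of miR-148 and miR-152 was taken as every mature microRNA (miRNA) named ssc-miR-148a, ssc-miR-148b or ssc-miR-152, with or without an arm suffix, in a table of small RNA sequences from pig backfat. This gave 5 of the 240 mature miRNAs of the table: ssc-miR-148a-3p, ssc-miR-148b-3p and ssc-miR-152 from the 3′ arms of their hairpins, and ssc-miR-148a-5p and ssc-miR-148b-5p from the opposite arms. They were counted through 419 of the 16636 distinct read sequences, and all 5 were counted in both backfat classes. The table comes from small RNA libraries of subcutaneous fat of 18 Italian Large White pigs, 1 animal per library, with body weights of 150 to 160 kg. The high backfat class held 9 animals, 4 females and 5 castrated males, with a median age of 241 days (235 to 250). The low class held 9 animals, 5 females and 4 castrated males, with a median age of 244 days (233 to 249).

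MicroRNAs are cut from hairpin transcripts and guide Argonaute proteins to messenger RNAs, mainly through pairing of the seed, bases 2 to 8 from the 5′ end. The 3p members of this family share a seed and are known for repressing DNA methyltransferase messages, and miR-148a is also known in liver as a regulator of the LDL receptor and the cholesterol exporter ABCA1. In fat, miR-148a is known to rise as precursor cells become adipocytes and to favour that step through repression of a Wnt ligand. The bases at the 3′ end do not form the seed, and enzymes that add single adenines or uridines there are known to act on many mature miRNAs.

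The mature forms are shown first because the seed defines the family and the bases after it tell its members apart. Each is the sequence that the deposited table lists as the exact match, written 5′ to 3′ with T for U and with the seed in capitals.
ssc-miR-148a-3p: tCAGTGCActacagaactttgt
ssc-miR-148b-3p: tCAGTGCAtcacagaactttgt
ssc-miR-152: tCAGTGCAtgacagaacttgg
ssc-miR-148a-5p: aAAGTTCTgagacactccgact
ssc-miR-148b-5p: gAAGTTCTgttatacactcaggc
With positions counted from 1 at the 5′ end, miR-148b-3p differed from miR-148a-3p by C9T and T10C. Over its 21 bases, miR-152 differed from miR-148a-3p by C9T, T10G and T20G. The 5p members share a seed of their own, AAGTTCT. None of the other miRNAs among the 225 with an exact match in the table carried either seed (0 for CAGTGCA and 0 for AAGTTCT). In the Sscrofa11.1 annotation, used for names only, MIR148A lies between the genes NFE2L3 and NPVF, MIR148B lies within COPZ1 and MIR152 within COPZ2. No other miRNA gene lies within 10000 bases of any of the 3.

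Library totals, summed over the distinct sequences of the table, ran from 9601510 to 34588252 reads. Levels below are counts per 1000000 of these reads (CPM) after TMM scaling unless another unit is given. The library high 6, from a female, stood apart. Its TMM factor was 1.37 against at most 1.14 elsewhere, and its median correlation with the other libraries was 0.952 against at least 0.970 for the rest. Mismatched reads of the other miRNAs placed the libraries in 8 sets, 7 pairs and 1 set of 4, with correlations of at least 0.931 inside a set and at most 0.877 between sets. Only 5 of these sets held both classes. What the sets stand for was not tested, and the fitted class differences in the members' levels are given with and without high 6, and with the set as a term where it was fitted. Skeletal muscle miRNAs (6 of 6 listed were counted) summed to 48.3 to 131 CPM among high and 78.9 to 216 CPM among low animals. Endothelial miRNAs (2 of 2) summed to 11374 CPM in high 6 and to 24952 to 41786 CPM in the other 17 libraries. The lists for red blood cells (4 of 4), white blood cells (3 of 4), neural cells (3 of 4), epithelium (1 of 6) and liver (1 of 1) were also represented, and none of their counted miRNAs was at 0 in every library. The part of these cell types in the results below was not tested.

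The most abundant member was miR-148a-3p, the form known to promote fat cell formation. In the high class its level ran from 24513 to 68383 CPM with a median of 52564, and in the low class from 45714 to 83501 CPM with a median of 65243. High 6 was the lowest of all 18 libraries at 24513 CPM, and the next lowest was high 2 at 40803 CPM. The classes overlapped: 6 of 9 high libraries lay below the low median, and 3 low libraries lay above the highest high library. Summed over its forms, miR-148a-3p took 5.75% on average of the reads counted in the table (3.36% to 8.07% over libraries). It ranked 3 of 240 by mean level, between rank 3 and rank 6 in single libraries.

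The level of miR-148b-3p, which shares the seed of miR-148a-3p, was 730 to 1127 CPM in the high class with a median of 888, and 707 to 963 CPM in the low class with a median of 894. The classes overlapped, and 5 of 9 high libraries lay below the low median. The others, high 3, high 5, high 7 and high 9, lay above every low library, at 1113, 1125, 1023 and 1127 CPM. The third 3p member, miR-152, was at 171 to 499.6 CPM in the high class with a median of 463, and at 457 to 681 CPM in the low class with a median of 511. All 9 high libraries lay below the low median of miR-152, and 6 of 9 low libraries lay above the highest high library.

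The opposite arm of the miR-148a hairpin, miR-148a-5p, was at 463 to 926 CPM in the high class with a median of 560 and at 557 to 796 CPM in the low class with a median of 668. High 9 held the highest value. The least abundant member, miR-148b-5p, was at 22.9 to 49.7 CPM in the high class with a median of 42.9 and at 31.0 to 55.9 CPM in the low class with a median of 38.3. For this member 8 of 9 high libraries lay above the low median, and high 6 again held the lowest value.

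The order of levels was steep at the top and shallow in the middle. Within a library, miR-148a-3p exceeded miR-148b-3p in 18 of 18 libraries, by a median ratio of 62.1 (33.6 to 112). Next in the order, miR-148b-3p exceeded miR-148a-5p in 17 of 18 libraries with a median ratio of 1.41, and miR-148a-5p exceeded miR-152 in 16 of 18 with a median ratio of 1.29. These 3 middle members had overlapping ranges and ranked 56, 62 and 66 of 240. The last step, from miR-152 to miR-148b-5p at rank 143, held in 18 of 18 libraries with a median ratio of 11.2.

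**Figure D1:**
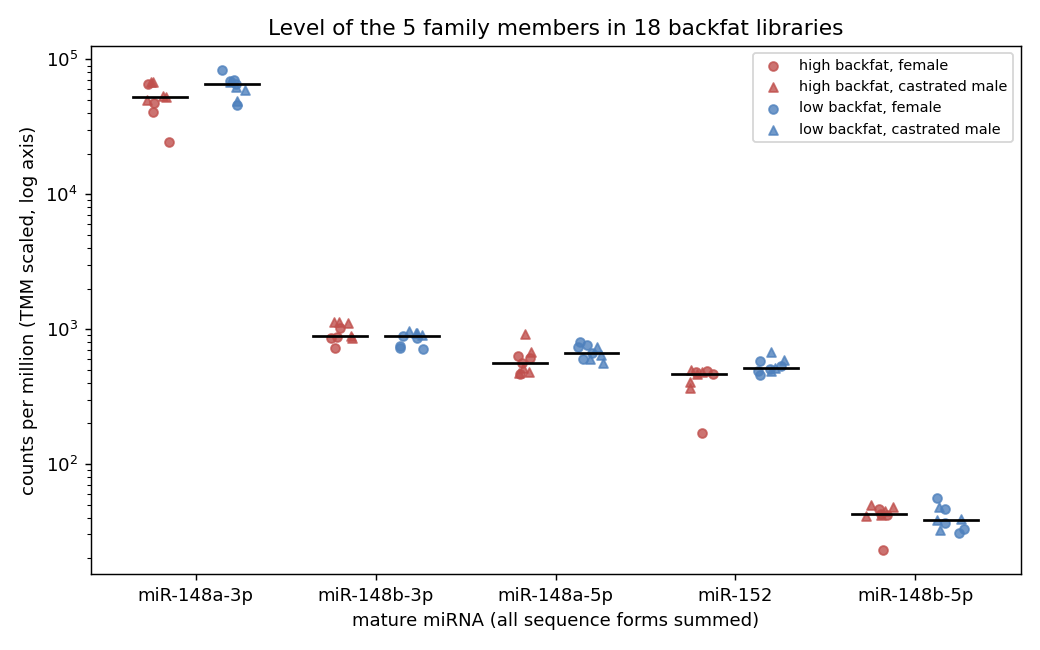
Levels of the 5 members in each of the 18 libraries (CPM on a log axis), coloured by backfat class, with females and castrated males marked and a bar at each class median. miR-148a-3p lies between 24513 and 83501 CPM, the middle 3 members overlap, and the low class of miR-152 lies mostly above the high class.

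Because the 3p members carry 1 seed, their levels were also added. The sum ran from 25411 to 69872 CPM in the high class with a median of 54170, and from 46919 to 84758 CPM in the low class with a median of 66560. Of this seed pool, miR-148a-3p made up 97.6% ± 0.524 (SD, n = 18). The share of miR-148b-3p was 1.87% ± 0.421 among high animals, against 1.35% ± 0.295 among low animals (SD, 9 libraries each), and that of miR-152 was 0.805% ± 0.173 and 0.852% ± 0.208. In the sum a sequence listed under 2 members was counted once. The mean log2 level of the pool was lower in the high class by 0.32, and by 0.19 without high 6. These are values with no test of their own, since the pool is nearly all miR-148a-3p.

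The study's main comparison was high against low backfat. No member passed the threshold, although miR-148a-3p, miR-152 and miR-148a-5p had lower and the miR-148b arms higher fitted values in the high class. The test, edgeR's quasi-likelihood fit with sex as a covariate, ran on 221 miRNAs with Benjamini-Hochberg adjustment and called 3.62% of all miRNAs but 0 of the 5 members. That count over all miRNAs, 8 of 221, was 13 without high 6, and it was 0 with age as a covariate, with the mismatch set as a term, and without any 1 of high 1, high 3, high 9, low 5, low 6 and low 9. At an unadjusted p under 0.05 it picked 1 of the 5 members, miR-152, against 24.4% of all miRNAs, and DESeq2's Wald test called 0 of 5 members against 9.95% of all miRNAs. Its p-values measure the spread between these animals. In bulk fat, fewer cells of a type and less RNA per cell cannot be told apart.

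The fitted difference of miR-152, high minus low, was -0.36 ± 0.16 on the log2 scale (SE; edgeR adjusted p = 0.167). Its mean level was 424 ± 104 CPM among high animals, against 537 ± 68.7 CPM among low animals (SD, 9 libraries each). Without high 6 the difference was -0.24, and without both high 6 and high 8, which form 1 of the mismatch sets, it was -0.21. With the set as a term it was -0.23, and inside the 5 sets that hold both classes the high value was lower in 5 of 5, by 0.04 to 0.51 on the log2 scale.

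For miR-148a-3p the fitted difference was -0.31 ± 0.17 (SE; edgeR adjusted p = 0.256), from means of 52229 ± 14214 and 63743 ± 11351 CPM (SD, 9 libraries each). It was -0.19 without high 6, -0.18 without high 6 and high 8 and -0.22 with the set as a term. Inside the sets the high value was lower in 4 of 5. The exception was the set of 4 libraries with codes AC485 to AC488, in which the 1 high library exceeded the mean log2 level of the 3 low libraries by 0.40. Without these 4 libraries the fitted difference was -0.50 (edgeR adjusted p = 0.247).

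The other 3 members had smaller fitted differences between classes. That of miR-148b-3p was 0.14 ± 0.09 (SE; edgeR adjusted p = 0.350), and it was -0.02 when exact matches alone were counted, 0.18 without high 6 and 0.25 with the set as a term. The 5p arm of miR-148a differed by -0.18 ± 0.13 (edgeR adjusted p = 0.393), by -0.28 without high 9, its highest library, by -0.18 without high 6 and by -0.10 with the set as a term. The 5p arm of miR-148b differed by 0.06 ± 0.15 (edgeR adjusted p = 0.848), by 0.16 without high 6, its lowest library, by 0.01 without low 7 and by 0.13 with the set as a term.

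**Figure D2:**
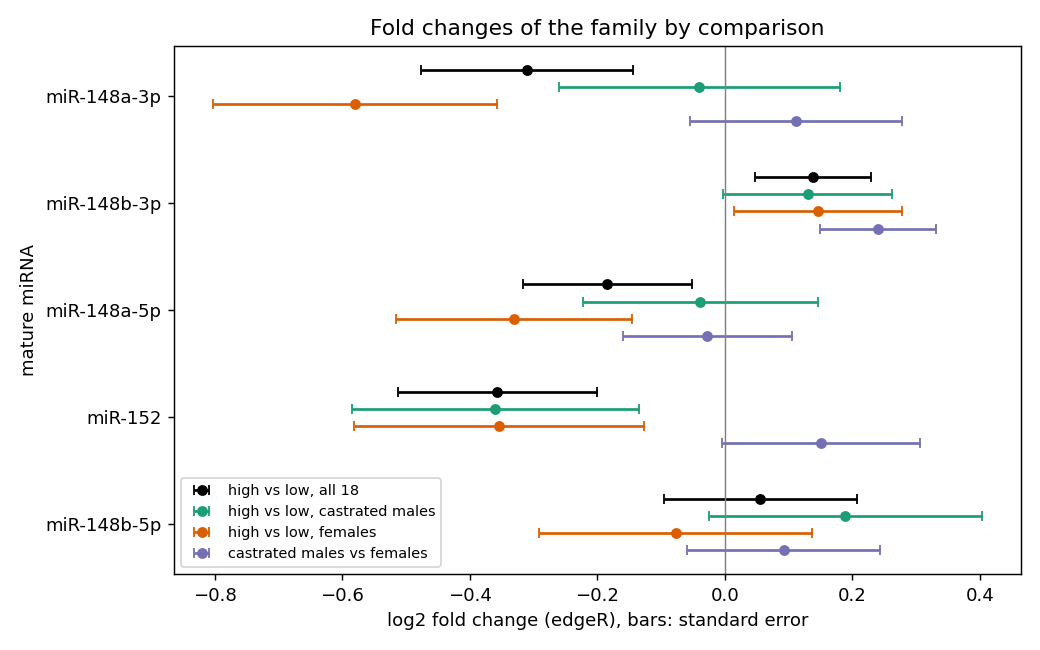
Log2 fold changes with standard errors of the 5 members in each comparison, from the edgeR fits on 221 miRNAs. The miR-148a-3p estimate is -0.58 within females and -0.04 within castrated males, miR-152 is -0.35 and -0.36, and no member passes the adjusted threshold.

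Castrated males and females were compared next, with class as a covariate. No miRNA passed the edgeR threshold (0% of 221), nor did any of the 5 members, and 7.69% of all miRNAs had an unadjusted p under 0.05, among them 1 member. That member was miR-148b-3p, whose fitted difference, castrated males minus females, was 0.24 ± 0.09 on the log2 scale (SE; edgeR adjusted p = 0.434). The estimates of the other 4 members were 0.11 ± 0.17 for miR-148a-3p, 0.15 ± 0.16 for miR-152, -0.03 ± 0.13 for miR-148a-5p and 0.09 ± 0.15 for miR-148b-5p. Without high 6 those of miR-148a-3p, miR-152 and miR-148b-5p were 0.02, 0.06 and 0.02. DESeq2 and limma also called 0 of the 5.

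Within the sexes, the fitted class difference of miR-148a-3p was larger in females, and neither it nor the difference between the sexes passed the threshold. The 4 high females were at 24513, 40803, 47415 and 66057 CPM, and the 5 low females at 45714, 65243, 69700, 70006 and 83501 CPM. All 4 high females lay below the low female median of 69700, and 2 of them below the lowest low female. The fitted difference was -0.58 ± 0.22 (SE; edgeR adjusted p = 0.354), and -0.40 without high 6. No miRNA was called within females (0% of 221), and 9.05% of all miRNAs and 1 of 5 members had an unadjusted edgeR p under 0.05.

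The 5 high castrated males were at 49593, 52564, 53200, 67530 and 68383 CPM of miR-148a-3p, and the 4 low castrated males at 49498, 59472, 62780 and 67769 CPM. These ranges coincided, and the fitted difference was -0.04 ± 0.22 (SE; edgeR adjusted p = 0.926), and -0.02 without high 6. In this comparison edgeR called 4.07% of all miRNAs and 0 of 5 members, none of which had an unadjusted p under 0.05. The class effect of miR-148a-3p in castrated males minus that in females was 0.54 ± 0.31 (SE; edgeR adjusted p = 0.587), and 0.38 without high 6. This test called 0% of all miRNAs, and none of the 5 members had an unadjusted p under 0.05.

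For miR-152 the class estimates were -0.36 ± 0.23 in castrated males and -0.35 ± 0.23 in females, and their difference was -0.01 ± 0.32 (SE). Without high 6 they were -0.33 in castrated males and -0.13 in females, with a difference of -0.21. In castrated males edgeR also called 2 of the 4 tested skeletal muscle miRNAs lower in the high class, and their part in these values was not tested. Across all settings run, 31 to 33 for each comparison, none of the 5 members passed the threshold in any comparison, and the lowest adjusted p was 0.0827, for miR-148a-3p within females.

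The members differed far more in the makeup of their reads than in their class differences. Reads of a member were sorted by how they differ from the listed mature form. They were exact, shortened at the 3′ end, extended with bases that match the precursor or do not match it, changed in the last base, mismatched inside, or begun at another base. Exact, extended and shortened forms of the 3p members are shown here with the added bases in capitals, since these kinds of form carry the differences described next.
ssc-miR-148a-3p, exact: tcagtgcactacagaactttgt
ssc-miR-148a-3p with T added: tcagtgcactacagaactttgtT
ssc-miR-148a-3p with TT added: tcagtgcactacagaactttgtTT
ssc-miR-148b-3p with TT added: tcagtgcatcacagaactttgtTT
ssc-miR-148b-3p, exact: tcagtgcatcacagaactttgt
ssc-miR-148b-3p with T added: tcagtgcatcacagaactttgtT
ssc-miR-148b-3p with TA added: tcagtgcatcacagaactttgtTA
ssc-miR-152, exact: tcagtgcatgacagaacttgg
ssc-miR-152 with A added: tcagtgcatgacagaacttggA
ssc-miR-152 with AA added: tcagtgcatgacagaacttggAA
ssc-miR-152, shortened to 18 bases: tcagtgcatgacagaact
ssc-miR-152 with T added: tcagtgcatgacagaacttggT
The precursor of miR-148a and that of miR-148b continue with C after the mature 3p form and that of miR-152 with G. The first added T or A of these forms therefore does not match them. An extension is called unmatched here when any of its bases differs from the precursor, so a later added base, as in the TT forms, may match.

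Reads of miR-148a-3p were mostly exact, 86.2% ± 2.23 (SD, n = 18). Forms extended with unmatched bases made up 4.82% ± 0.563, shortened forms 2.13% ± 0.197 and internal mismatches 5.23% ± 2.23. Among 140 miRNAs with a mean of at least 1000 reads, miR-148a-3p ranked 3 by its exact share, where the median was 38.5%.

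Reads of miR-148b-3p and miR-152 were mostly not exact. For miR-148b-3p, 29.9% ± 5.17 were exact and 62.1% ± 6.18 were extended with unmatched bases (SD, n = 18). For miR-152, 19.6% ± 3.57 were exact, 56.6% ± 4.34 were extended with unmatched bases and 16.3% ± 1.99 were shortened. Among the 140 miRNAs these 2 members ranked 2 and 3 by the share extended with unmatched bases, miR-148a-3p ranked 62, and the median was 3.42%.

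The most abundant single form of miR-148b-3p was thus not the listed one: the form with TT added held 34.6% of its reads, the exact form 29.9% and the form with T added 22.8%. Low 7 stood apart, with 47.8% exact and 42.3% extended with unmatched bases. For miR-152 the exact form at 19.6% was followed by A added at 14.7%, AA added at 12.6%, the 18-base form at 12.3%, T added at 10.4% and TA added at 8.92%. For miR-148a-3p the form with T added held 2.35%, that with TT added 1.58% and that with A added 0.430%.

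The added bases differed in kind. Of the extensions that did not match the precursor, those made of T alone held 92.4% in miR-148b-3p, 81.5% in miR-148a-3p and 28.9% in miR-152. Those made of A alone held 3.28%, 12.1% and 48.2%. These additions were mostly T in miR-148b-3p and miR-148a-3p, which end in the same bases. In miR-152, which ends in GG, additions of A alone were more frequent than additions of T alone. T was the first added base in 96.2% of these extensions in miR-148b-3p, 86.7% in miR-148a-3p and 44.8% in miR-152. A was the first in 3.75%, 12.9% and 50.0%. Any role of the end bases was not tested.

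**Figure D3:**
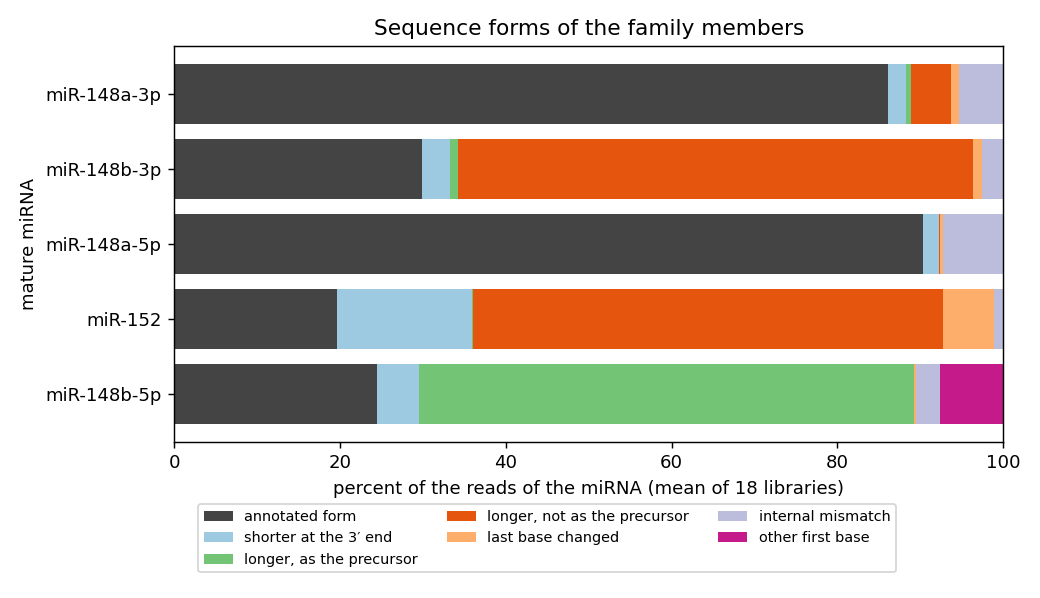
Mean share of each kind of form in the reads of the 5 members over 18 libraries. Exact reads make up 86.2% of miR-148a-3p and 90.3% of miR-148a-5p, while unmatched extensions make up 62.1% of miR-148b-3p and 56.6% of miR-152.

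Each difference between the 3p members held in nearly every library. In 18 of 18 libraries the exact share was lower and the unmatched extended share higher in miR-148b-3p and in miR-152 than in miR-148a-3p. By a two-sided sign-flip permutation test over the 18 libraries with 100000 resamples, each of these had p = 1e-05, the smallest the resamples can give, with an adjusted p of 1.09e-05 over 12 comparisons. Among these 3 members, the unmatched extended shares of miR-152 and miR-148b-3p kept their order in fewer libraries: the share was lower in miR-152 in 16 of 18 libraries by 5.51 percentage points on average (permutation p = 0.00011). These comparisons were added after the data were seen.

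**Figure D4:**
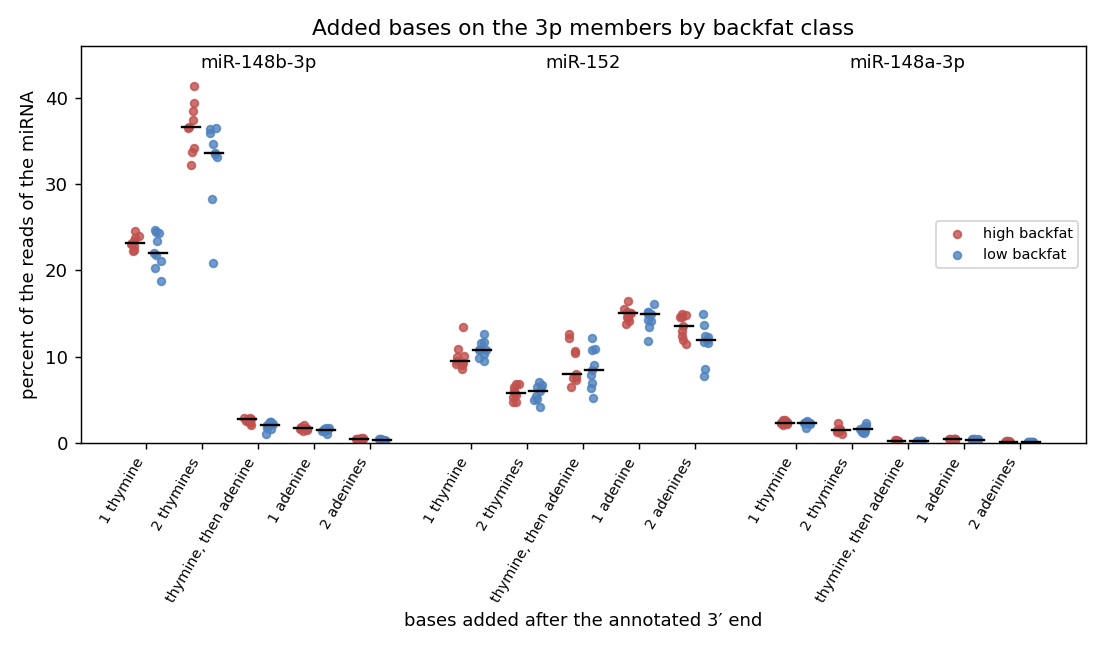
Share of a member's reads that carry each 3′ addition (percent), per library, for the 3p members, with the classes in 2 colours and a bar at each class median. The form with 2 thymines added lies at 20.9% to 41.4% in miR-148b-3p and at 1.06% to 2.32% in miR-148a-3p, and the form with 1 adenine added lies at 11.9% to 16.4% in miR-152.

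Against the rest of the table, miR-148a-3p was the more uniform. Its exact share of 86.2% compared with 49.0% for all other miRNAs pooled, 26.7% for miR-143-3p and 27.1% for miR-27b-3p, abundant 3p miRNAs near it in rank. It was higher than each in 18 of 18 libraries (two-sided sign-flip permutation p = 1e-05, the smallest possible, adjusted p = 1.06e-05 over 18 comparisons). The pool is weighted by reads, and miR-10b alone held 28.6% to 40.4% of the reads counted in the table for a library. Reads beginning at another base made up 0.0682% of miR-148a-3p, 6.30% of the other miRNAs pooled, 0.507% of miR-143-3p and 0.170% of miR-27b-3p. Of the 6 shares compared, 1 went the other way: reads with 2 mismatches were 0.138 percentage points more frequent in miR-148a-3p than in miR-27b-3p, in 16 of 18 libraries (permutation p = 0.00011).

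A read that begins at another base has another seed, so the few such forms above 10 CPM are shown with their own seeds, bases 2 to 8, in capitals.
ssc-miR-148a-3p begun 1 base later: cAGTGCACtacagaactttgt
ssc-miR-148a-3p begun 2 bases later: aGTGCACTacagaactttgt
They were at 15.2 and 11.5 CPM on average, that is 0.0266% and 0.0201% of the reads of miR-148a-3p. In miR-148b-5p, by contrast, a form begun 1 base later held 6.86% ± 1.52 of the reads (SD, n = 18), at 2.82 CPM.
ssc-miR-148b-5p begun 1 base later: aAGTTCTGttatacactcaggct

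The 5p members were also unlike each other. Reads of miR-148a-5p were 90.3% ± 3.47 exact. The listed form of miR-148b-5p held 24.5% ± 3.06 of its reads, and the form longer by T, the next base of the precursor, held 59.7% ± 4.01 (SD, n = 18). The 5p arm gave 1.21% ± 0.497 of all miR-148a reads among high animals, against 1.08% ± 0.248 among low animals (SD, 9 libraries each; exact permutation p = 0.583). High 6 was far above the rest of its class, at 2.43% against 0.702% to 1.35%, and without it the high mean was 0.0240 percentage points below the low mean. The 5p arm gave 4.23% ± 0.647 of miR-148b reads among high and 4.52% ± 0.948 among low animals (exact permutation p = 0.459).

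The makeup of the members was then compared between classes and sexes. Over 14 comparisons of shares of miR-148a-3p and its 5p arm, by exact two-sided permutation tests of 9 against 9, none passed after adjustment. The lowest p was for reads of miR-148a-3p with 2 mismatches, 0.507% ± 0.0825 among high animals, against 0.399% ± 0.0704 among low animals (SD, 9 libraries each; exact permutation p = 0.00827, adjusted p = 0.116).

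Among 8 further comparisons added after the data were seen, the lowest p was for the unmatched extended share of miR-148b-3p. It ran from 60.5% to 69.98% in the high class with a median of 64.9%, and from 42.3% to 66.1% in the low class with a median of 61.2%. The class means were 65.1% ± 3.19 and 59.1% ± 7.12 (SD, 9 libraries each; exact permutation p = 0.0148, adjusted p = 0.119). Without low 7 the difference of the means was 3.90 percentage points (adjusted p = 0.236). For miR-152 the same share was 57.9% ± 2.44 and 55.4% ± 5.52 (exact permutation p = 0.245).

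The levels of single forms were tested next. With edgeR's quasi-likelihood test on 7330 table entries, 173 of them from this family, no entry of any miRNA was called between classes (0%). At an unadjusted p under 0.05 there were 21 of 173 family entries, 12.1%, against 8.77% of all entries. Of the 6 tested forms of miR-148b-3p with unmatched extensions, 5 had such a p and all 5 were higher in the high class.

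The form of miR-148b-3p with TT added was at 273 to 444 CPM in the high class with a median of 349, and at 196 to 351 CPM in the low class with a median of 301. Its fitted difference was 0.37 ± 0.12 on the log2 scale (SE; edgeR adjusted p = 0.288). That of the form with TA added was 0.59 ± 0.17 (edgeR adjusted p = 0.206), from 25.2 ± 5.23 and 16.9 ± 4.43 CPM (SD, 9 libraries each). The exact form of miR-148b-3p differed by -0.04 ± 0.13.

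DESeq2's Wald test, run beside it, called 8 of the 173 family entries between classes, 4.62%, against 3.52% of all entries. These were the same 5 extended forms of miR-148b-3p, higher in the high class, and 3 others. DESeq2 gave the TT form an adjusted p of 0.0336 and the TA form one of 0.00504. The other 3 were miR-152 with T added (23.0 to 50.2 CPM against 43.3 to 86.0 CPM), a shortened miR-152 of 19 bases (3.82 to 13.7 CPM against 10.5 to 25.1 CPM), both lower in the high class, and the C7G form of miR-148a-3p. When edgeR was limited to entries with a mean of at least 10 CPM it called 2 of 69 family entries, 2.90%, against 3.21% of all. They were the TA form of miR-148b-3p (edgeR adjusted p = 0.0468) and the C7G form (edgeR adjusted p = 0.0438).
ssc-miR-152, shortened to 19 bases: tcagtgcatgacagaactt

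The C7G form has a base of the seed replaced, shown in capitals.
ssc-miR-148a-3p with C7G: tcagtgGactacagaactttgt
It was at 276 CPM in high 8, 131 CPM in high 6, 51.4 CPM in high 3 and 48.0 CPM in high 1, and at most 11.6 CPM in the other 14 libraries. High 6 and high 8 form 1 mismatch set and high 1 and high 3 another, and these are 2 of the 3 sets that hold a single class. So class and set cannot be told apart for this form. Without high 6 and high 8 its mean was 16.5 CPM among high and 2.97 CPM among low animals. Of the 7 high libraries left, the 5 other than high 1 and high 3 were at 1.18 to 8.95 CPM, within the low range of 1.27 to 11.6 CPM but for high 2 at 1.18. Between castrated males and females, 7 of 173 family entries, 4.05%, had an unadjusted edgeR p under 0.05 against 4.99% of all entries, and none was called by edgeR, DESeq2 or limma.

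The internal mismatches of miR-148a-3p as a whole differed from set to set. Their share ran from 2.91% to 10.3% of its reads, with means of 5.29% among high and 5.16% among low animals. Differences between the 8 sets held 0.994 of its variance over the 18 libraries, against 0.294 for the unmatched extended share and 0.566 for the log2 level. These shares are not adjusted for the number of sets. With 8 sets over 18 libraries they lie well above 0 even where sets make no difference, so the 2 lower values alone show no tie to the sets. The sets were drawn from mismatches of the other miRNAs, so no read of this family was used to make them.

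Single substitutions in full-length reads were 63 in number, and 19 of the 20 most abundant had over 0.9 of their variance between sets. The 2 most abundant fall in the seed and are shown with the changed base in capitals.
ssc-miR-148a-3p with A3T: tcTgtgcactacagaactttgt
ssc-miR-148a-3p with C2T: tTagtgcactacagaactttgt
A3T held 0.636% to 3.79% of the reads of miR-148a-3p and was highest in high 5 and low 6. C2T held 0.0963% to 2.41%. In a separate count of A3T for every member, it held 0.657% to 3.90% of the reads of miR-148a-3p. By that count A3T in miR-148a-5p held 0.529% to 4.01% of its reads, with 4.01% in high 5, 3.84% in high 1, 3.12% in high 3 and 2.92% in low 6. It held a smaller share of the reads of miR-148b-3p (0.164% to 1.38%) and of miR-152 (0% to 1.10%), which share the seed of miR-148a-3p. These are shares of all reads of a member, and the members differ in makeup. Exact reads were 86.2% of miR-148a-3p, 29.9% of miR-148b-3p and 19.6% of miR-152. The smaller shares therefore do not show that A3T was rarer beside exact reads, which was not tested. In miR-148b-5p it held 0% to 4.91%.

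Other substitutions were nearly private to 1 set. T10G was at 0.783% and 0.793% in low 6 and high 5 and at most 0.0129% elsewhere. C17G was at 0.701% and 0.714% in the pair low 1 and low 4 and at most 0.191% elsewhere. G21T was at 0.525% and 0.538% in the pair high 4 and low 3 and at most 0.0482% elsewhere. In 18 of the 20 most abundant substitutions the highest set did not overlap the other sets.

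**Figure D5:**
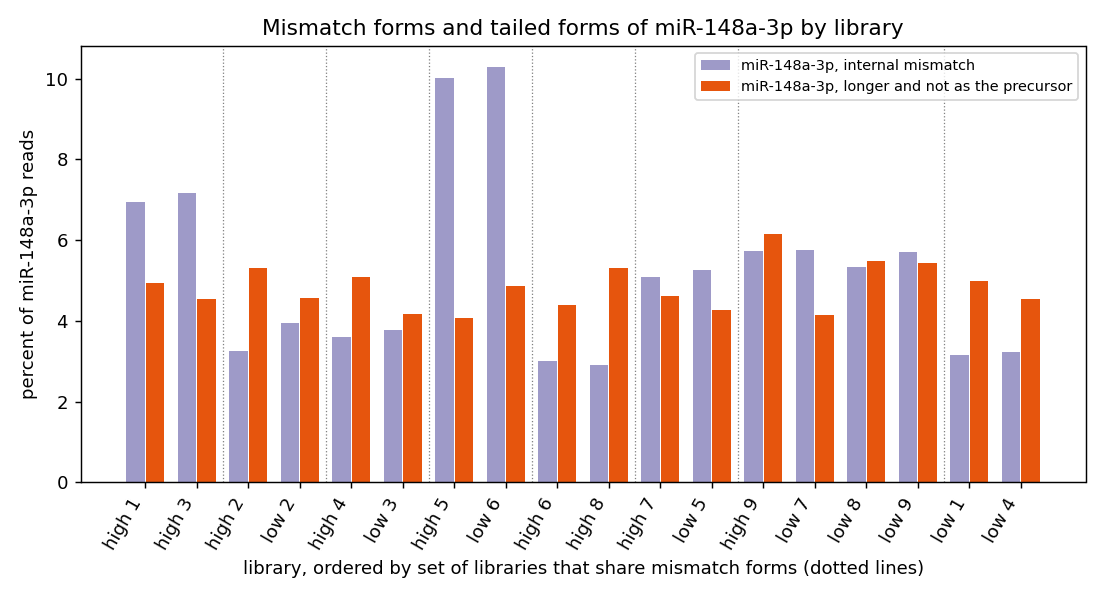
Share of miR-148a-3p reads with an internal mismatch and with unmatched 3′ extensions in each library (percent of its reads), ordered by the 8 mismatch sets, which dotted lines separate. The mismatch bars of a set are of like height, from 2.91% in high 8 to 10.3% in low 6, while the extension bars run from 4.07% to 6.15%.

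Because the 3p members differ by few bases, a mismatch can turn one into a neighbour of another, and 8 sequences were listed under 2 members. The T10C form of miR-148a-3p is the T9C form of miR-148b-3p (2910 reads), and the C9T form of miR-148a-3p is the C10T form of miR-148b-3p (1912 reads). Which hairpin such reads came from cannot be told apart. Leaving out all internal mismatches gave class differences of -0.31 for miR-148a-3p and -0.35 for miR-152.

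The miRNAs whose log2 levels over the 18 libraries were most like that of miR-148a-3p, among 174 others with a mean of at least 10 CPM, were miR-374a-5p, miR-190a, miR-545-5p, miR-101 and miR-374a-3p. Their Pearson correlations were 0.80, 0.79, 0.78, 0.77 and 0.75, and their Spearman correlations 0.52, 0.60, 0.48, 0.43 and 0.34. Without high 6 the Pearson values were 0.45, 0.53, 0.40, 0.45 and 0.40, lower for all 5. Least like it were miR-1306-5p, miR-326 and miR-874, with Pearson correlations of -0.81, -0.69 and -0.67 and Spearman correlations of -0.62, -0.41 and -0.42. Without high 6 their Pearson values were -0.58, -0.34 and -0.26. All these values share library, depth and scaling, and they are given as a description.

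The other members were placed by the same measure. For miR-152 the correlation with miR-148a-3p was 0.69, rank 9 of 174, and 0.13 without high 6. For miR-148b-3p it was 0.31 at rank 54, for miR-148b-5p 0.29 at rank 57 and for miR-148a-5p, from the same hairpin, 0.29 at rank 59. Without high 6 these 3 values were 0.07, -0.39 and 0.40, so that of miR-148b-5p turned in sign.

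Lists of miRNAs with related roles were set beside the family, and each list also holds miR-148a-3p itself. Of 21 miRNAs known to promote fat cell differentiation 19 were matched and tested. In the class comparison edgeR called 0 of them higher and 1 lower, beside 3.62% of all miRNAs called. The 1 was miR-199a-5p at -0.38 ± 0.09 (SE; edgeR adjusted p = 0.0486). With age or the mismatch set as a term, or with limma, no miRNA was called, this one included. The median fold change of the list was -0.06 on the log2 scale, against -0.03 for all miRNAs. Its 4 most abundant were miR-143-3p at -0.03 ± 0.13, miR-148a-3p, miR-30a-5p at -0.15 ± 0.11 and miR-181a at -0.06 ± 0.12 (SE).

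Of 13 miRNAs known to repress DNA methyltransferase messages 10 were tested, and 0 were called higher or lower between classes by edgeR. Their median was -0.15, with 7 of 10 below 0. These 10 include the family's own miR-148a-3p at -0.31, miR-152 at -0.36 and miR-148b-3p at 0.14. Beside miR-143-3p and miR-148a-3p the most abundant were miR-126-3p, an endothelial miRNA, at 0.04 ± 0.14, and miR-101 at -0.47 ± 0.18 (SE; edgeR adjusted p = 0.150). Of 15 miRNAs known to repress lipid transport messages 10 were tested, with 0 called in either direction and a median of -0.14. Beside miR-148a-3p its most abundant were miR-27b-3p at -0.12 ± 0.12, miR-27a at -0.21 ± 0.10 and miR-30c-5p at 0.23 ± 0.11 (SE). Between castrated males and females 0 members of these lists were called by edgeR, and 9 of 10 were above 0 in each of the last 2 lists. Those lists share miR-148a-3p and miR-185, and their medians were 0.13 and 0.10, against -0.01 for all miRNAs. These values include high 6, a female with the lowest sum of both lists. Its sums were 148967 CPM, against at least 218900 elsewhere, and 55563 CPM, against at least 95260.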

How the data were processed

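Small RNA was sequenced from backfat of 18 pigs. The authors deposited raw counts, whole numbers of reads per sequence form of each mature miRNA, and a table of normalised signal, in which each library's raw count is divided by 1 size factor. Per the submitters' processing notes, the tools were HTSeq, with no version, Bowtie 0.12.7 and DESeq2 1.4.5, on Sscrofa10.2. How reads were trimmed, and with how many mismatches they were accepted, is not given in the sources used here. A further 2 value columns fit no sample and were left out.

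A sequence listed repeatedly under a mature miRNA entered once, with the highest of its listed counts. Counts were fitted on all miRNAs (221 after filterByExpr with a minimum count of 10) with edgeR's quasi-likelihood test, TMM scaling and Benjamini-Hochberg adjustment over all, at a threshold of 0.05. Classes were compared with sex as covariate and sexes with class as covariate. Effects within a sex came from 1 model with 4 sex and class means. SE was computed from F, and the prior count for log2 CPM was 2. The scripts were tested on simulated data. Software was edgeR 4.0.16, DESeq2 1.42.0 and limma 3.58.1 in R 4.3.3, and SciPy 1.17.1, NumPy 2.4.6, Matplotlib 3.10.9 and pandas 2.3.3 in Python 3.11.15.

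The members, lists and comparisons were chosen with earlier results of these data known. Named were all members, the 10 most abundant forms of each arm as needed, forms past the threshold, forms with another first base above 10 CPM, the 5 miRNAs most like miR-148a-3p and the 3 least like it, and the 4 most abundant of each list. Other substitutions and forms were named after their values were seen. The mismatch sets group libraries whose shares of 193 internal substitutions in other miRNAs correlate at 0.9 or more. Sequences come from the deposited table, with none matched to RefSeq.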

Additional observations from a re-analysis of the deposited data

Results flagged for a closer look

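Of 34 groups of 9 values examined, 7 held 1 library far from the other 8, and chance gives about 1 in 20. The groups come from the same libraries and some are shares of the same reads. They are therefore not independent, and an excess over chance cannot be read from this count. In the high class, high 6 was lowest for miR-152 at 171 CPM (the rest at 367 to 499.6), lowest for miR-148b-5p at 22.9 CPM (the rest at 41.3 to 49.7), and highest for the share of miR-148a reads from the 5p arm at 2.43% (the rest at 0.702% to 1.35%). High 9 was highest for miR-148a-5p at 926 CPM (the rest at 463 to 673).

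In the low class, low 7 had 42.3% of its miR-148b-3p reads extended with unmatched bases (the rest at 54.6% to 66.1%) and 47.8% exact (the rest at 27.6% to 35.6%). Low 6 had 15.7% of its miR-148a-3p reads with 1 mismatch (the rest at 8.30% to 11.9%).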

How the results depend on the processing

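No paired analysis was possible because the labels give no replicate numbers shared between the groups; numbers here follow accession order. The terms for mismatch sets, the fits without high 6 and high 8 or without internal mismatches, and the comparisons of unmatched extensions were chosen after seeing the data. Of 770 alternative values of the members' fold changes, 723 kept their direction and side of the threshold and 47 changed sign, and none passed the threshold. The member with the fewest reads, miR-148b-5p, was at 22.9 to 55.9 CPM.

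Log2 differences that changed sign were as follows, and the cause was not tested. Class within castrated males: miR-148a-3p 0.0302 when all listings were summed and 0.00774 without high 6 and high 8; miR-148b-3p -0.152 with exact matches only; miR-148a-5p 0.0213 with a term for runs of library codes, 0.0391 with all listings, 0.0127 with exact matches and 0.0323 without high 6 and high 8. Class overall: miR-148b-3p -0.0191 with exact matches only. Class within females: miR-148b-5p 0.118 with limma and 0.0979 without high 6 and high 8. Class effect in castrated males minus females: miR-148b-3p 0.00373 with no low-count filter and 0.0218 without the libraries AC485 to AC488; miR-152 0.0126 with DESeq2 size factors and with DESeq2's Wald test (0.0126), 0.00649 with no filter, 0.0766 with the run, 0.155 without AC485 to AC488, 0.0104 with all listings and 0.00269 without internal mismatches.

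Leaving out 1 library gave these ranges where a sign changed: miR-148a-3p within castrated males -0.121 to 0.0440, miR-148b-3p and miR-152 in the difference between sexes -0.0664 to 0.0700 and -0.205 to 0.105, miR-148a-5p by sex -0.115 to 0.0180 and within castrated males -0.208 to 0.0563, and miR-148b-5p within females -0.182 to 0.0874. For shares of reads in percentage points, high minus low: exact -0.949 to 0.0977, ending earlier -0.0122 to 0.0678, another first base -0.00473 to 0.00393, 1 mismatch -0.253 to 0.859, 5p arm of miR-148a -0.0240 to 0.192. Castrated males minus females: ending earlier -0.0382 to 0.0418, ending later -0.122 to 0.201, 2 mismatches -0.0157 to 0.0274, unmatched extensions of miR-148a-3p -0.103 to 0.158 and of miR-148b-3p -2.28 to 1.17.

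Without AC485 to AC488 shares changed sign for class in ending earlier (-0.00322), another first base (0.00448) and the unmatched extensions of miR-152 (-0.237), and for sex in ending later (-0.0770) and the unmatched extensions of miR-148a-3p (-0.0484), miR-148b-3p (0.993) and miR-152 (0.187). With forms without mismatch only, ending later by class was -0.00961 and another first base 0.00127. Between classes the forms of this family past the threshold numbered 0 in edgeR, 8 in DESeq2 and 2 in edgeR at 10 CPM. The unmatched extended share of miR-148b-3p passed without low 1 (6.87 points higher in the high class) and not without any other library (3.90 to 6.87). Over all miRNAs the class comparison called 8 with TMM, 1 with DESeq2 size factors in edgeR, 22 with DESeq2's Wald test, 0 with limma, age or the mismatch set as a term or without AC485 to AC488, 1 with no low-count filter, 3 without internal mismatches, 4 without high 6 and high 8, and 0 to 13 without 1 library, the highest without high 6.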
